A study of Mus musculus with 4 samples.

Results

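The 48 h library was set against the 24 h library of 3T3 cells kept in recombinant LTα1β2, to describe what moves between the first and the second day of continued ligand. The comparison rests on 2 of the 4 libraries of the series and on the 12160 of 12208 listed genes with a mean of at least 1 CPM (counts per 1000000) over the 4 libraries. The 4 groups were control at 24 h, control at 48 h, LTα1β2 at 24 h and LTα1β2 at 48 h, with 1 library in each. The labels give 3T3 as a mouse pre-osteoblast cell line and name no genotype, no clone and no dose. Nothing in them says that the libraries came from separate cultures. With 1 library a side there is no test of this comparison, so a gene was called by size, at least 2-fold, and each ratio carries an exact 95% interval that covers counting error only. Every change below is a difference of log2(CPM + 1) between 48 h and 24 h unless a ratio of CPM is named, and it understates the change of low genes. At the edge of the expression limit, Dok3 and Tigd3 lay just outside, at means of 1.00 and 0.999 CPM, and Miga1 and the gene model Gm7809 just inside, at means of 1.00 and 1.00 CPM.

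LTα1β2 is the membrane form of lymphotoxin, a TNF superfamily ligand that stromal cells bind through the lymphotoxin β receptor. That receptor releases the kinase NIK, which drives processing of the p100 product of Nfkb2 and nuclear entry of RelB complexes, and it also engages canonical NF-κB. Interferon-stimulated genes are a separate programme, switched on when a STAT and IRF complex binds a response element in their promoters, and many of their products restrict viruses. Ribosomal protein genes encode the structural proteins of the ribosome, and their transcripts are short and abundant.

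The treated 48 h library stood apart from the other 3, and since it is one side of the comparison no change can be given without it. Sequencing depth, as whole reads recovered from the table, ran from 11355974 in that library to 15995777. Weighted by reads, the median length of its transcripts was 2848 bases, where the others had 3329 to 3414. Ribosomal protein genes held 8.81% of its reads, against 4.55% to 4.94% elsewhere, and mitochondrially encoded genes held 3.11% to 3.44% in all 4. Of the pre-osteoblast markers 8 of 10 were in the table and of the fibroblast markers 10 of 12; Alpl and Ibsp, which mark mineralising osteoblasts, were not among the listed genes. Of 12 macrophage and leukocyte markers 4 were listed (Cd68, Lyz2, Csf1r and Cd14), with a summed level of 72.1 and 83.8 CPM in the controls and 67.9 and 98.2 CPM under ligand (24 h, then 48 h). Lyz2 alone made up 53.8 and 82.9 CPM of the last pair, and the pan-leukocyte marker Ptprc was not in the table. Of 7 epithelial markers none was listed. The part of such cells in any change was not tested, and in bulk RNA a change in the number of cells of a type cannot be told apart from a change in RNA per cell.

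Antiviral genes of the interferon response were higher at 48 h under ligand in 43 of 49 tested cases, where 35.7% of all genes were higher. The interferon-induced gene Ifit1, whose product binds viral RNA, was at 148 and 139 CPM in control cells at 24 h and 48 h, and at 166 and 603 CPM in treated cells at the same times. Its neighbour Ifit3 was at 134, 113, 151 and 534 CPM in the same order of libraries. In both genes the first 3 libraries lay close together and the treated 48 h library stood alone above them. The promoters of these genes are shown first, because the response element gives the group its identity. The element was searched as GAAANNGAAA on both strands, in RefSeq windows from 250 bases before to 50 bases after each annotated start (GRCm38.p6). Each line below is a 100-base stretch upstream of the start, written 5′ to 3′ along the gene's strand, with matches in capitals; a match on the opposite strand reads TTTCNNTTTC. The stretches are chr19:34640759-34640858 (plus strand) for Ifit1, chr19:34583362-34583461 (plus) for Ifit3, chr19:34607758-34607857 (plus) for Ifit3b and chr4:156200830-156200929 (minus) for Isg15.
Ifit1: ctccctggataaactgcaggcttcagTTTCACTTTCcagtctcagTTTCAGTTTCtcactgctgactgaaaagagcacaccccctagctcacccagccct
Ifit3: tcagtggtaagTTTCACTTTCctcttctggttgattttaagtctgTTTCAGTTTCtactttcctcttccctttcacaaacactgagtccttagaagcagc
Ifit3b: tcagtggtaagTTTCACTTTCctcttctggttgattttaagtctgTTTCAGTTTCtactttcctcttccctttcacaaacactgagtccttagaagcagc
Isg15: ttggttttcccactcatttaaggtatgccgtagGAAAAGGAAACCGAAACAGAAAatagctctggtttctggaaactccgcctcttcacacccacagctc

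Ifit1 and Ifit3 each held 2 matches, and Isg15 held 3 that overlap one another. The Ifit3 and Ifit3b stretches carried the same letter at 100 of 100 positions, while Ifit1 and Ifit3 shared 34 by position. Ifit3 and Ifit3b are closely similar copies, so their reads can be shared and their separate values are uncertain. Among the tested genes with a RefSeq window, 347 of 9238 (3.76%) held the motif in at least 1 window. It was held by 9 of the 31 matched genes that were 2-fold higher both as measured and with the length trend removed (29.0%), a set defined below. These 9 were Ifit1, Ifit3, Ifit3b, Ifit1bl2, Isg15, Gbp3, Apol9b, Akr1c14 and the gene model Gm12250. In the antiviral effector list 18 of 38 matched genes held it (47.4%), in the list of guanylate-binding proteins, immunity-related GTPases (IRG) and schlafens 11 of 14 (78.6%), and in the ribosomal protein list 7 of 60 (11.7%). Of the 7 matched genes that were 2-fold lower in both ways, 0 held it. A match is a description of these letters and not a binding site, and the windows of Irf7, Phf11d, Slfn2 and Ifi44 held no match.

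As measured, 127 genes were at least 2-fold higher at 48 h than at 24 h in treated cells (1.04% of 12160) and 52 were at least 2-fold lower (0.428%). At these shares a short gene list is apt to hold 0 such genes, so a count of 0 in a list below says little. In control cells, which share no library with the treated pair, 1 gene was 2-fold higher (0.00822%) and 3 were 2-fold lower (0.0247%). The median change was -0.13 in treated cells, with quartiles of -0.34 and 0.13, and -0.02 in control, with quartiles of -0.13 and 0.08. The counting interval of the ratio excluded 1 for 7135 genes in treated and 3164 in control cells. At 1.5-fold the treated counts were 678 (5.58%) and 845 (6.95%), and 518 (4.26%) and 397 (3.27%) with the length trend, described next, removed. Rescaling the columns by median-of-ratios factors moved the treated median by 0.13, to 0.00, and gave 206 higher and 31 lower genes, so that higher genes were 86.9% of the calls against 70.9%. Across the 12160 genes the treated and control changes had Pearson's r = 0.32 and Spearman's rho = 0.34, a description of genes that are not independent and with no p. Just outside the 2-fold limit lay the respiratory chain gene Cox7c, which went from 66.8 to 135 CPM. On the lower side Ttll3, a tubulin ligase family gene, went from 15.5 to 7.22 CPM and lay just inside it, and Ahdc1 went from 45.6 to 22.5 CPM and lay outside.

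The change in treated cells declined with transcript length, taken as the longest protein-coding transcript of each gene. Over 12157 genes Spearman's rho with length was -0.54 in treated and -0.12 in control cells, again as a description of genes within these libraries. The 1216 genes with the shortest transcripts, up to 1211 bases, had a median of 0.35 and held 80 of the 127 higher genes. The 1216 with the longest, from 6689 bases, had a median of -0.41. The same 2 classes in control cells lay at 0.05 and -0.05. Among the 200 most abundant genes, the short Rplp1 transcript (499 bases) was at 0.91. The long transcripts of the cytoskeletal linker Plec and the scaffold Ahnak (15455 and 18100 bases) were at -0.67 and -0.59. The small RNA gene model Gm23935, also among the shortest, was at -0.11, and Serbp1, annotated at 15474 bases but with a protein-coding transcript of 558 bases, was at 0.33.

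**Figure D1:**
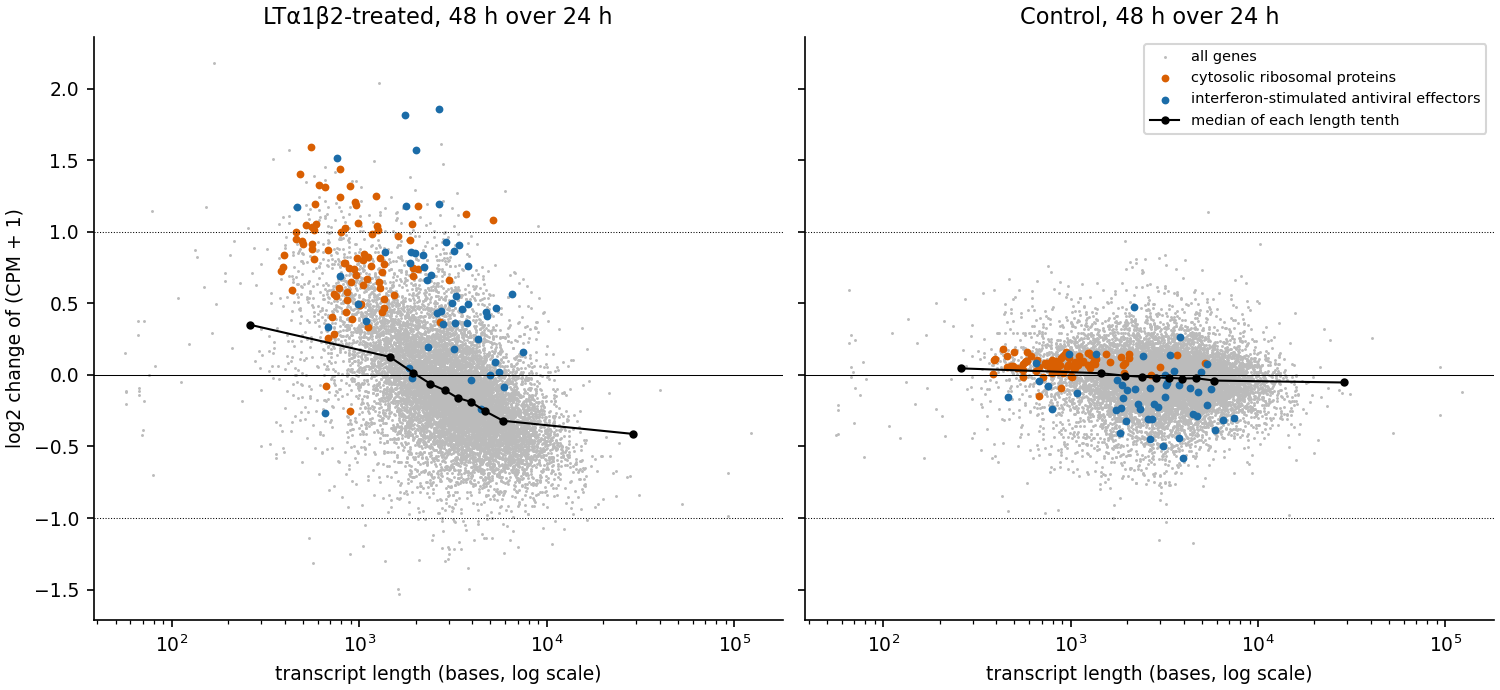
Change from 24 h to 48 h (log2 of CPM + 1, y axis) against transcript length in bases (log x axis) for every gene, in treated cells on the left and control cells on the right. Orange and blue points are ribosomal protein and antiviral effector genes and the black line joins the medians of 10 length classes, which run from 0.35 to -0.41 in treated and from 0.05 to -0.05 in control cells; blue points lie mostly above the line at every length on the left.

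A smooth curve of change on length was subtracted to ask what lay beyond this decline. With it removed, 64 genes were 2-fold higher (0.526% of 12157) and 54 were 2-fold lower (0.444%). Taken both as measured and with the trend removed, 42 genes were 2-fold higher (0.345%) and 23 were 2-fold lower (0.189%). Of the 42, 10 belonged to the interferon and antigen presentation lists, 7 to the cytosolic ribosomal proteins and 3 to the respiratory chain. These lists hold 124, 81 and 77 of the 12160 tested genes. In 3 further versions of the length removal (median transcript length, shortest protein-coding transcript, length bins) 41 of the 42 and 15 of the 23 stayed past the limit in all. The trend-removed counts themselves moved with the length used: 142 genes were higher and 20 lower with median transcript length, and 176 and 24 with the shortest protein-coding transcript. Medians of the lists of short transcripts moved with it too. With the shortest transcript the trend-removed median was 0.85 for ribosomal proteins, against 0.45 with the longest, 0.57 against 0.23 for the respiratory chain, 0.70 against 0.37 for the immunoproteasome, 0.45 against 0.20 for the constitutive proteasome and 0.73 against 0.41 for chemokines. The mitochondrially encoded genes went from -0.19 to 0.29. The antiviral effectors stayed at 0.60 against 0.64 and the GTPases and schlafens at 0.61 against 0.63. The higher and the lower sets differed in kind. Among the 42, 5 had no informative symbol and 4 were not protein-coding. Among the 23 these were 17 and 18, mostly low predicted transcripts. Over all 12160 genes 1017 were not protein-coding. Of the 23, 0 belonged to the interferon, ribosomal or respiratory chain lists, which hold so few of all genes that this count says little. With length removed, the treated change still leaned on base composition, with Spearman's rho of -0.23 with the GC percent of the transcript, and medians of 0.13 in the 1216 genes of lowest GC and -0.08 in the 1216 of highest GC.

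Of 52 listed antiviral effector genes 49 were tested, and 7 were 2-fold higher and 0 lower as measured, 9 and 0 with the trend removed. Their median was 0.50 against -0.13 over all genes, 0.64 with the trend removed against 0.00, and -0.12 in control. In this list 45 of 49 lay above the length trend, where 49.4% of all genes did, and 43 of 49 had their highest level of the 4 libraries at 48 h under ligand, where 27.4% of all genes did. Ifit1 was 3.64-fold higher (3.48 to 3.82), with a change of 1.86, of 1.94 with the trend removed and of -0.09 in control. Ifit3 was 3.53-fold higher (3.37 to 3.71), against 0.842 of its 24 h level in control (0.788 to 0.90). Ifit3b, at 51.5 and 47.7 CPM in the controls and 54.3 and 163 CPM under ligand, was 3.01-fold higher (2.77 to 3.27). The Ifit genes form a block on chromosome 19 in GENCODE M21 (GRCm38, which may not be the authors' build), from Ifit2 (34550694 to 34576419) through Ifit3 (34583531 to 34588731) to Ifit1 (34640871 to 34650009). All 6 tested genes of the block were higher, from 0.50 for Ifit2 to 1.86 for Ifit1, and Ifit1bl1 and Ifit1bl2 between them were at 0.75 and 1.12. The block was listed in full after its values were seen.

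Isg15 and Usp18, chosen after their values were seen, encode a ubiquitin-like modifier and the protease that removes it and damps interferon signalling. Isg15 was at 89.2 and 84.6 CPM in the controls and 80.5 and 232 CPM under ligand, a 2.88-fold change (2.69 to 3.09). Usp18 was at 46.6 and 45.6 CPM in the controls and 40.5 and 93.2 CPM under ligand, a 2.30-fold change (2.08 to 2.55). For both genes the treated 24 h library was the lowest of the 4 and the treated 48 h library the highest. Phf11d, a PHD finger gene induced by interferon, went from 11.1 to 26.9 CPM under ligand and from 10.6 to 7.48 CPM in control. Not every listed gene shared the direction: Ifitm2 was at -0.26 and Pml at -0.24, also named after their values were seen.

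**Figure D2:**
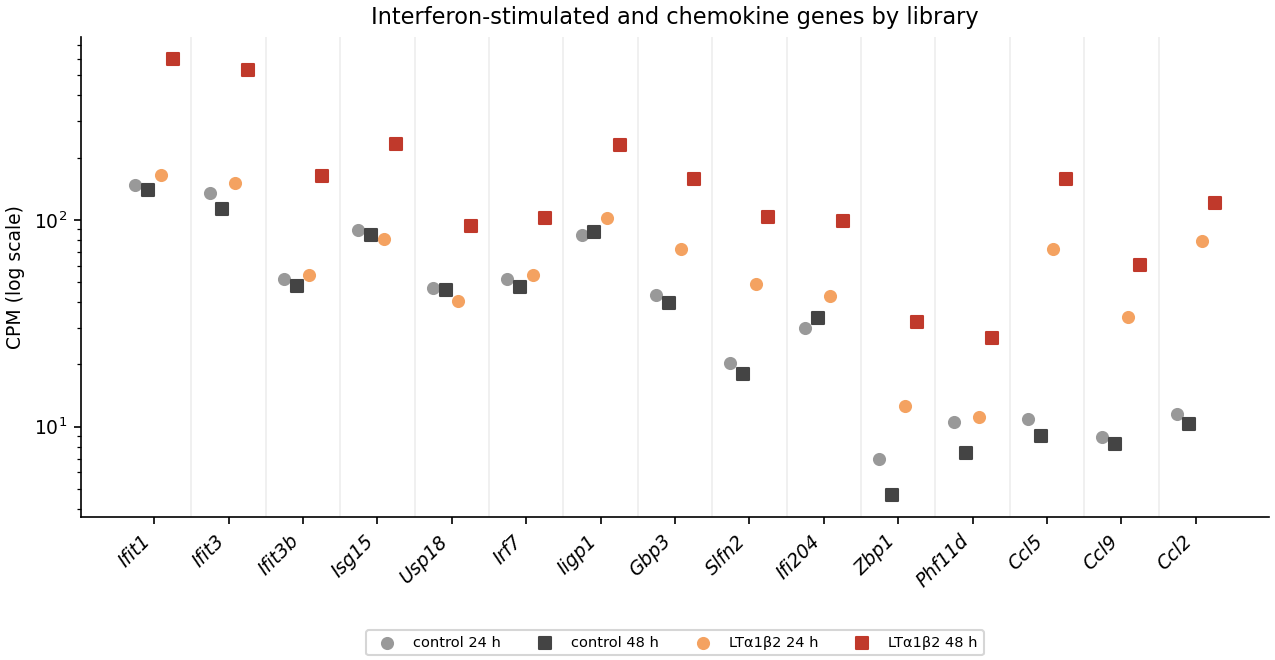
CPM (log axis) of 15 interferon-stimulated and chemokine genes, with 1 point for each of the 4 libraries and no error bar, since each group is 1 library. The treated 48 h point is the highest for each gene drawn; for Ifit1 it lies at 603 CPM with the others between 139 and 166 CPM, and for Ccl5 the treated 24 h point at 72.3 CPM already lies above both controls.

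Most tested GTPases that attack the membranes of intracellular microbes were higher, and the schlafens were divided as measured. Of 26 listed genes 20 were tested, 17 were higher and 3 lower, 3 were 2-fold higher and 0 lower, and 18 lay above the length trend, with a median of 0.55 (0.63 with the trend removed, -0.11 in control). The IRG gene Iigp1 was at 84.8 and 87.0 CPM in the controls and 102 and 230 CPM under ligand. The guanylate-binding protein gene Gbp3 was at 43.4, 39.7, 72.0 and 157 CPM in the same order. Slfn2, a schlafen linked to immune cell quiescence, was at 20.3, 18.02, 48.8 and 103 CPM. Iigp1 thus stood near its controls at 24 h, while Gbp3 and Slfn2 were already above theirs and were 2.19-fold (2.03 to 2.36) and 2.11-fold (1.92 to 2.32) higher again at 48 h. Among the other schlafens Slfn8 was at 0.55, Slfn10-ps at 0.10, Slfn3 at -0.04 and Slfn9 at -0.16. With the trend removed they were at 0.75, 0.28, -0.05 and 0.14, in the same order. The large GTPase gene Gvin1 was at -0.55, and it and these schlafens were named after their values were seen. Tgtp2, which has a near-identical copy in Tgtp1, went from 27.4 to 55.6 CPM, and genes of these families can share reads.

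Cytosolic sensors of foreign nucleic acid split in 2 directions. Of 15 tested genes 2 were 2-fold higher, and the list median was 0.13 (0.35 with the trend removed, -0.11 in control). Zbp1, a sensor of Z-form nucleic acid that triggers cell death, was at 6.94 and 4.66 CPM in the controls and 12.5 and 32.1 CPM under ligand. Ifi204, of the DNA-binding Ifi200 family on chromosome 1 whose members are alike in sequence, was at 29.8, 33.6, 42.8 and 99.2 CPM. Of the RNA helicase genes, Dhx58 was at 0.60 and Ifih1 at 0.46. The adaptors that pass the signal on were lower: Mavs was at -0.53 and Tmem173, which encodes STING, at -0.43, both named after their values were seen.

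The regulators of the interferon response included genes in both directions. The 18 tested receptors, STATs and IRFs had a median of -0.13, the same as all genes, which median-of-ratios rescaling moved to 0.00, and 0 were 2-fold changed. Irf7, the amplifier of type I interferon, was at 51.9 and 47.2 CPM in the controls and 54.3 and 102 CPM under ligand (1.88-fold, 1.72 to 2.06). Irf9 was 1.29-fold higher (1.17 to 1.41), and Socs3, a feedback inhibitor of cytokine signalling, was at -0.47 in treated and -0.35 in control cells. The interferon genes themselves were not analysed here.

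Antigen processing genes were mostly higher, and none passed 2-fold on the log2(CPM + 1) scale as measured. All 6 immunoproteasome and activator genes were above 0, as were 35.7% of all genes, and lay above the length trend, with a median of 0.62 (0.37 with the trend removed, -0.10 in control), and 0 passed 2-fold. The catalytic subunit gene Psmb9 was at 24.5 and 24.7 CPM in the controls and 33.7 and 59.1 CPM under ligand. The activator subunit gene Psme2 was at 170, 158, 219 and 363 CPM. The 31 constitutive proteasome genes had a median of 0.41, which was 0.20 with the trend removed, and 0.08 in control. One of them, Psma3, went from 168 to 336 CPM, at 0.997 as measured and 1.10 with the trend removed. Among 16 genes of MHC class I and peptide loading 0 were 2-fold changed and the median was 0.09. H2-T22 and H2-T23, nonclassical class I genes of a family with closely similar copies, were at 0.68 and 0.74, and H2-T24, at 2.47 to 5.19 CPM in all libraries, was at -0.79.

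Of the 18 listed inflammatory chemokine genes 6 were tested, and 5 of these were higher at 48 h. Ccl5, an attractant of T cells and monocytes, was at 10.9 and 9.01 CPM in the controls and 72.3 and 158 CPM under ligand, a 2.19-fold change with time (2.03 to 2.37). It was the 1 gene of the list past 2-fold as measured, and with its 532-base transcript the change was 1.12 as measured and 0.61 with the trend removed, or 1.19 with the trend on shortest transcripts. Ccl9 was at 8.94, 8.25, 34.0 and 60.2 CPM with a change of 0.81 as measured and 0.93 with the trend removed. Ccl2, the main monocyte attractant, went from 79.4 to 121 CPM under ligand (1.52-fold, 1.40 to 1.64), and its change was 0.60 as measured and 0.21 with the trend removed, or 0.64 with shortest transcripts. Complement C3 went from 325 to 393 CPM, against 42.9 and 42.1 CPM in control. The gelatinase gene Mmp9 went from 93.4 to 147 CPM (0.65) and in control from 11.2 to 20.8 CPM (0.84).

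The receptor pathway genes and the NF-κB subunit, inhibitor and feedback genes were not higher as a group on the second day. Of the NF-κB subunit, inhibitor and feedback genes 12 were tested and 0 were 2-fold changed. Over all genes 1.04% were 2-fold higher and 0.428% lower, so 0 of 12 is near that share. Above the length trend lay 4, where 49.4% of all genes did, and the median was -0.21 (-0.09 with the trend removed, 0.00 in control). Nfkb2 was at 142 and 144 CPM in the controls and 320 and 270 CPM under ligand, so that treated levels lay above both controls at both times and the 48 h level was 0.844 of the 24 h level (0.806 to 0.883). Relb went from 41.3 to 37.5 CPM and the IκBε gene Nfkbie from 80.1 to 62.5 CPM. Treated against control, which shares a library with the change over time, Nfkb2 was at 1.16 at 24 h and 0.90 at 48 h. Ifit1 was at 0.16 and 2.11 by the same measure, Slfn2 at 1.22 and 2.45, and Ccl5 at 2.62 and 3.99. Of 12 tested lymphotoxin receptor pathway genes 0 were 2-fold changed, again near the share over all genes. Their median was -0.25, against -0.13 over all genes, and -0.04 with the trend removed. Ltbr, the receptor gene, was at 156 and 150 CPM in the controls and 151 and 130 CPM under ligand. Map3k14, which encodes NIK, was at -0.65 in treated and -0.63 in control cells. Traf3, which holds NIK at low levels, was at -0.72 and -0.38, and the treated change of its long transcript was -0.36 with the trend removed, or -0.65 with shortest transcripts.

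**Figure D3:**
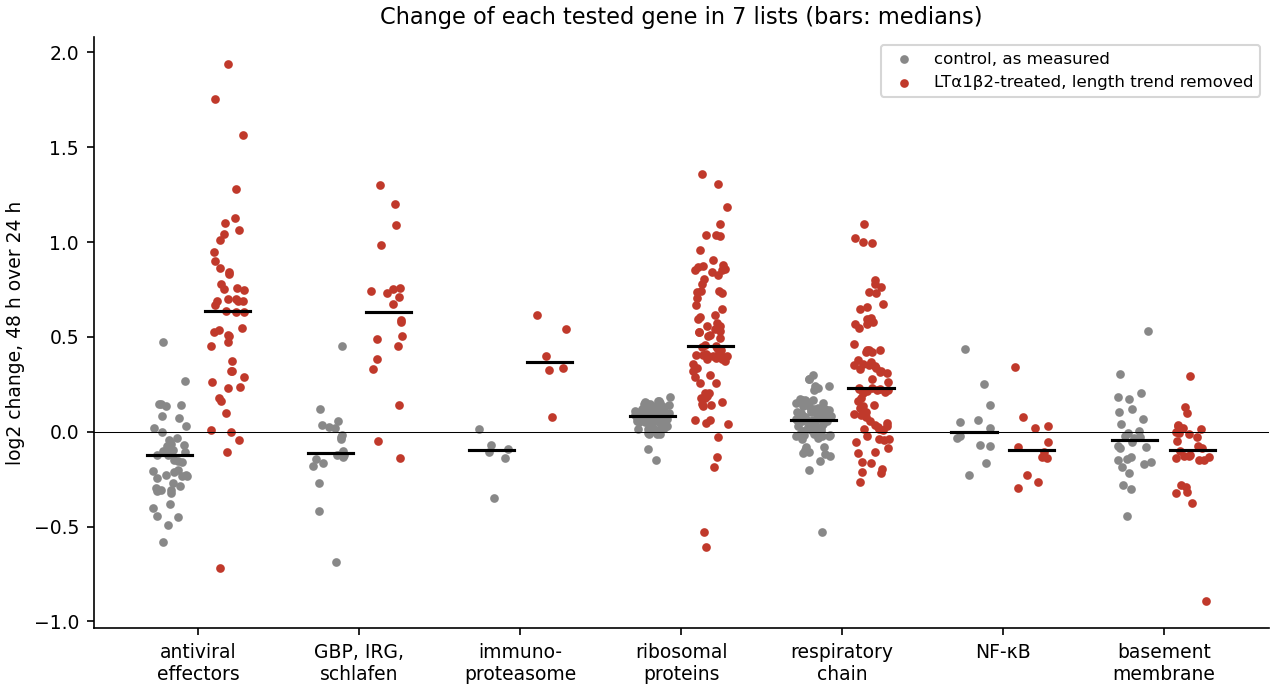
Change from 24 h to 48 h of each tested gene in 7 lists, in control as measured (grey) and in treated cells with the length trend removed (red), with bars at the medians. In the antiviral effectors the medians are -0.12 and 0.64, in the ribosomal proteins 0.08 and 0.45, and in the NF-κB genes 0.00 and -0.09.

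Ribosomal protein genes were the largest named group among the higher genes. Of 81 tested genes 25 were 2-fold higher and 0 lower, 7 and 0 with the length trend removed, and 76 lay above the trend. The median was 0.80, which was 0.45 with the trend removed and 0.85 with the trend on shortest transcripts, and 0.08 in control. The median transcript length of the list was 906 bases, against 3091 over all genes, and the share of reads it held moved with these changes as given above. Small subunit genes (32) had a median of 0.83 and large subunit genes (47) a median of 0.76. Rpl22l1, a paralogue of Rpl22, was highest, at 55.8 and 57.4 CPM in the controls and 58.8 and 179 CPM under ligand (3.05-fold, 2.82 to 3.31). Rpl22 went from 221 to 501 CPM under ligand and from 197 to 218 CPM in control. Rps14, named after its values were seen, went from 545 to 1480 CPM. Rps20 and Rps15a were at 1.13 and 1.08. Their annotated lengths of 3706 and 5179 bases raised their trend-removed changes to 1.31 and 1.36, which were 1.36 and 1.18 with shortest transcripts. Rps10 ran against the group, at -0.25, and was named after its values were seen. Ribosomal protein genes have many processed pseudogenes, and of 159 tested processed pseudogenes 12 were 2-fold higher and 0 lower, with a median of 0.37. Such copies can share reads with their parent genes.

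Nuclear-encoded subunits of the respiratory chain and ATP synthase were also higher, with 0 past 2-fold in the lower direction. Of 77 tested genes 13 were 2-fold higher, 3 higher and 0 lower with the trend removed, with a median of 0.51 (0.23 with the trend removed, 0.06 in control). Cox6c, of complex IV, was at 127 and 131 CPM in the controls and 125 and 336 CPM under ligand. Ndufb11, of complex I, was at 46.6, 49.3, 39.4 and 102 CPM. The treated 24 h library was the lowest of the 4 for both genes and the treated 48 h library the highest. Usmg5, an ATP synthase-associated subunit annotated at 352 to 2733 bases, went from 68.0 to 211 CPM (3.10-fold, 2.88 to 3.34). Of 14 mitochondrially encoded genes 11 were higher, where 35.7% of all genes were, and 1 was 2-fold higher. Their median was 0.23 as measured and 0.10 in control. With the trend removed it was -0.19, or 0.29 with shortest transcripts. Above the trend on longest transcripts lay 5 of the 14, where 49.4% of all genes did. The 16S ribosomal RNA gene mt-Rnr2 was at 1.14 in treated and 0.38 in control cells, while the complex I gene mt-Nd2 was at -0.39 and 0.12. Mitochondrial ribosomal protein genes (77 tested) had a median of 0.29, which was 0.18 with the trend removed.

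Other genes past 2-fold in both ways were scattered in function. The brain cytoplasmic RNA gene Bc1, of 168 bases, was at 8.31 and 10.3 CPM in the controls and 10.1 and 49.1 CPM under ligand (4.88-fold, 4.07 to 5.88). Sec61g, a subunit of the translocon of the endoplasmic reticulum, went from 83.6 to 219 CPM. Itgb3bp, a centromere protein gene, went from 10.9 to 32.1 CPM. Sis, Glyat and Tceal1 were low, at 2.40, 2.34 and 3.07 CPM at 24 h and 7.31, 7.04 and 8.45 CPM at 48 h under ligand. In the list of long non-coding RNAs 7 of 11 tested genes were higher and 4 lower. Of its host genes of small nucleolar RNAs, Snhg8 went from 18.02 to 41.9 CPM, past 2-fold as measured but at 0.77 with the trend removed, Gas5 from 140 to 263 CPM and Zfas1 from 31.5 to 55.7 CPM. Their control changes were 0.39, 0.08 and 0.02.

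Fewer genes with known products were 2-fold lower. Among those past the limit in both ways were Spaca6, Rsph10b, Cacnb1, Nek3 and the pseudogene Slc2a4rg-ps, at -1.05, -1.30, -1.17, -1.01 and -1.28. Their control changes were -0.46, -0.16, -0.02, -0.56 and -0.41. Of the 23 genes lower in both ways, 20 were also lower in control, where 54.2% of all genes were lower. Rsph10b, a ciliary radial spoke gene, went from 5.81 to 1.76 CPM and Cacnb1, a calcium channel subunit gene, from 14.5 to 5.90 CPM. The strand setting of the counting is not given in the sources used here, so antisense and overlapping genes are uncertain. Of 169 tested antisense genes 6 were 2-fold lower and 0 higher, and of 121 TEC gene models, an annotation class that awaits experimental support, 11 and 0.

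Npnt, which encodes the matrix protein nephronectin, moved in opposite directions in the 2 treatments. It went from 84.6 to 123 CPM in control and from 36.1 to 15.9 CPM under ligand, a ratio of 1.45 (1.35 to 1.56) against 0.439 (0.369 to 0.521). Its treated change was -1.14 as measured but -0.89, short of 2-fold, with the trend removed, or -1.07 with shortest transcripts. The treated levels were the lowest of the 4 libraries at both times, and this difference in direction has no test. Its list of 28 basement membrane and adhesive glycoprotein genes had a median of -0.40, which was -0.10 with the trend removed, and all 28 had their lowest level of the 4 libraries at 48 h under ligand, as did 50.3% of all genes. Fn1, fibronectin, was at 6702 and 6054 CPM in the controls and 4952 and 3016 CPM under ligand.

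The collagen, matrix protease and IGF lists had medians below that of all genes as measured, with single members well below the length trend. The small leucine-rich proteoglycans (8 tested) did not, with a median of -0.02 against -0.13 over all genes. The 31 fibrillar collagen and collagen assembly genes had a median of -0.20, which was -0.03 with the trend removed, and 0 were 2-fold changed. Col1a1, the main bone collagen gene, was at -0.45 as measured and -0.13 with the trend removed. Col1a1 was at -0.61 when median transcript length was used. Lox, the collagen crosslinking enzyme gene, was at -0.76 and -0.51. Of 17 matrix proteases and inhibitors 0 were 2-fold lower as measured and 1 was with the trend removed, Timp1, an inhibitor of metalloproteases, which went from 276 to 175 CPM under ligand and from 177 to 123 CPM in control. Its trend-removed change was -1.02, but -0.62 with shortest transcripts. Mmp13 was at 0.881 to 2.67 CPM in the 4 libraries. The IGF system (8 tested) had a median of -0.49, which was -0.09 with the trend removed, and 1 gene was 2-fold lower. That was Pappa, a protease of IGF-binding proteins with an 11027-base transcript, which went from 15.1 to 6.96 CPM.

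**Figure D4:**
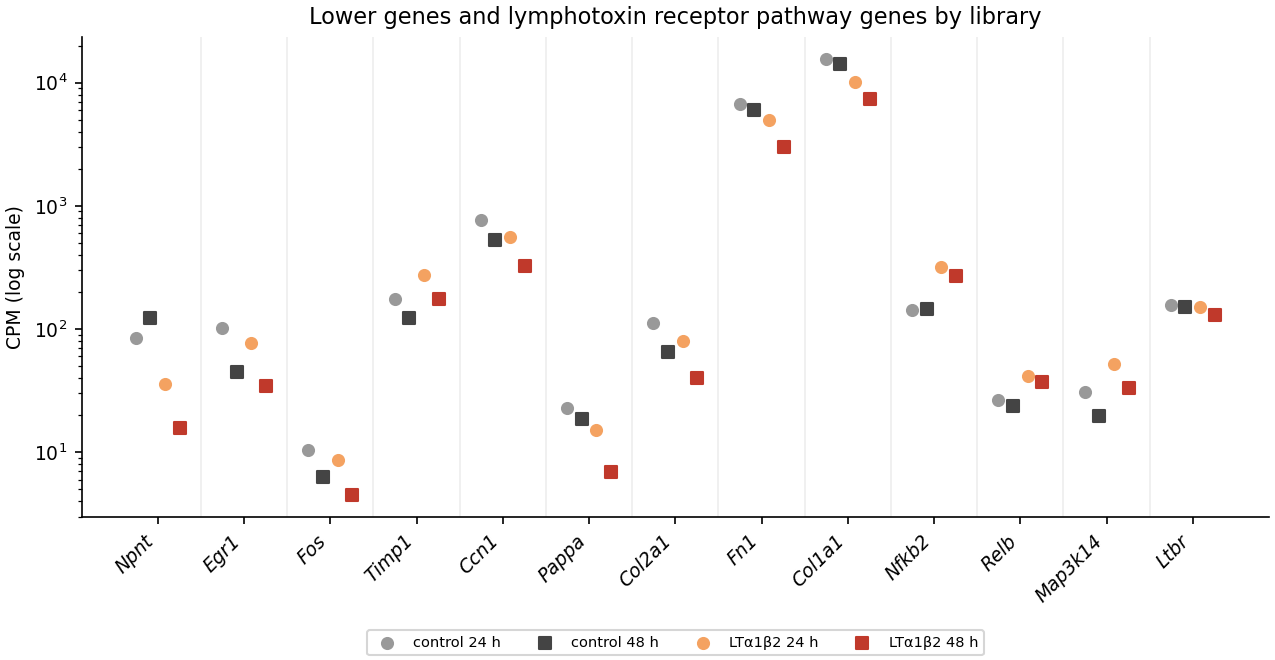
CPM (log axis) of 13 genes that were lower at 48 h under ligand or belong to the lymphotoxin receptor pathway, with 1 point per library and no error bar. Egr1 and Timp1 lie lower at 48 h in both pairs, Npnt goes from 84.6 to 123 CPM in control and from 36.1 to 15.9 CPM under ligand, and Nfkb2 stays above its controls at 320 and 270 CPM.

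Osteoblast genes were mixed. Of 18 tested genes 0 were 2-fold changed, 7 lay above the length trend, and the median was -0.18 (-0.11 with the trend removed, 0.06 in control). The lineage factor gene Sp7 went from 12.8 to 7.93 CPM under ligand, with 35.1 and 30.8 CPM in control, and Runx2 from 91.5 to 67.5 CPM, with 116 and 126 CPM in control. The matrix genes Dmp1, Spp1 (osteopontin) and Ogn were higher in both pairs. The change of Dmp1 was 0.69 in treated and 0.50 in control cells, that of Spp1 0.63 and 0.31, and that of Ogn 0.69 and 0.18. Col2a1, a cartilage collagen gene, was at -0.998 and -0.77.

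Immediate early genes, which answer serum and growth factors within minutes, had medians below 0 in both treatments. Of 25 tested genes 22 were lower in treated cells, where 7813 of all 12160 genes were lower. In control 15 were lower, as were 54.2% of all genes. Their median was -0.25 in treated cells (-0.18 with the trend removed) and -0.13 in control. Egr1 was at 102 and 44.4 CPM in the controls and 76.4 and 34.8 CPM under ligand, and its ratio was 0.455 under ligand (0.405 to 0.511) and 0.437 in control (0.397 to 0.481). Fos was at -0.82 and -0.65 in treated and control cells, and Ier2 at -0.60 and -0.70. Of 24 cholesterol synthesis genes 15 were higher and 9 lower in treated cells, 20 lay above the length trend, and 1 was lower in control, with medians of 0.14 (0.28 with the trend removed) and 0.23 in control. Idi1, an isomerase of the isoprenoid branch, was at 0.86 and 0.26.

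**Figure D5:**
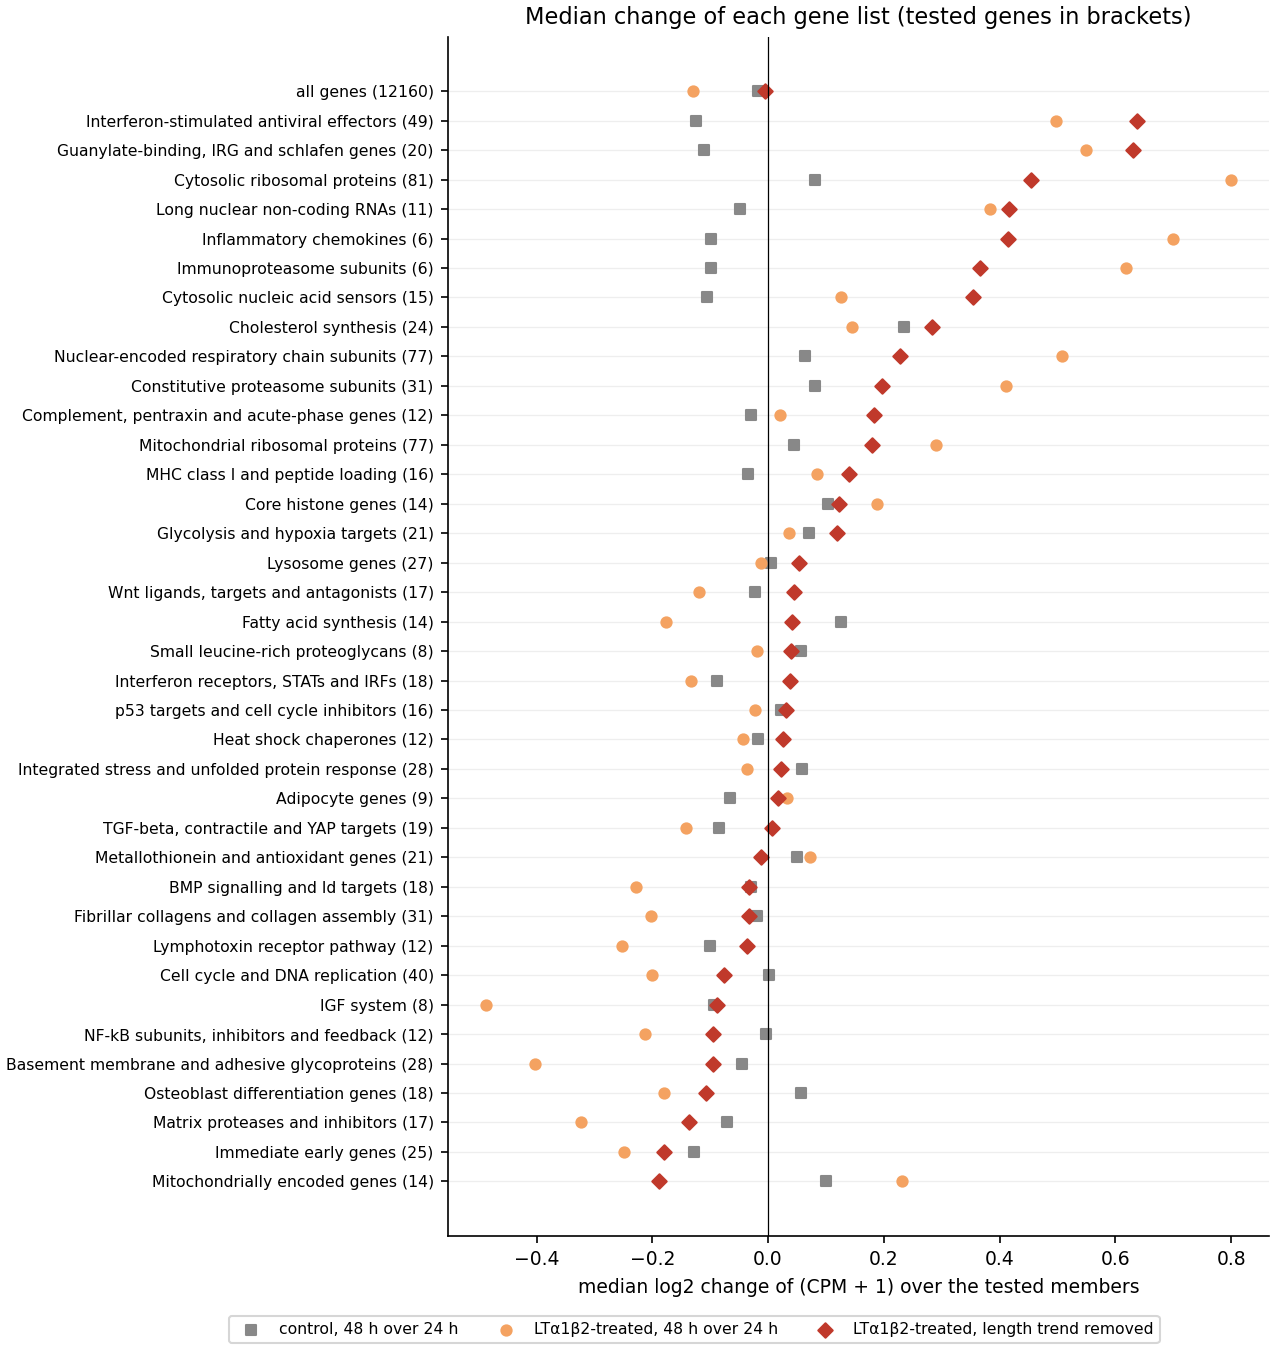
Median change from 24 h to 48 h (log2 of CPM + 1) over the tested members of 37 gene lists, for control (grey squares) and for treated cells as measured (orange circles) and with the length trend removed (red diamonds). Antiviral effectors and GTPases lie at 0.64 and 0.63 once length is removed, ribosomal proteins go from 0.80 to 0.45 (0.85 with the trend on shortest transcripts), and the basement membrane list goes from -0.40 to -0.10.

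Time could be tested only over both treatments together. The additive fit (limma, treatment plus time, 4 libraries, Benjamini-Hochberg 0.05) asks whether the mean of the treated and control changes differs from 0, and it called 59 genes rising (0.485% of 12160) and 60 falling (0.493%). Egr1 fell by 1.14 on the log2 scale (SE 0.17, limma adjusted p = 2.34e-07), and it was lower in 2 of 2 pairs. Fos, Ier2, Ccn1, Col2a1 and Map3k14 also fell. Usmg5 rose by 0.91 (SE 0.17, limma adjusted p = 0.000168), higher in 2 of 2 pairs, and 9 ribosomal protein and 12 respiratory chain genes rose with 0 falling. Ifit1 passed too, at 0.88 (SE 0.17, limma adjusted p = 0.000366), although it was higher in 1 of 2 pairs. Each gene was judged against the spread common at its level and not its own, so a gene that moves in 1 treatment alone can pass. Of the 127 higher genes 54 rose and of the 52 lower genes 25 fell, counts that share the treated pair with the calls and lend them no support. The spread behind the p-values comes from how far the treated and control changes differ, pooled over genes, since each group holds 1 library. It may be technical and is not a spread between replicates. After median-of-ratios rescaling 0 genes passed in either direction (limma), with 1454 at an unadjusted p under 0.05. Leaving out a library also drops the treatment term. Without the treated 48 h library 0 and 0 genes passed and without control at 24 h 0 and 0, with 554 and 178 at an unadjusted limma p under 0.05. Without treated cells at 24 h the fit gave 6 rising and 1 falling, and without control at 48 h 855 and 1304.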

How the data were processed

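RNA sequencing of 4 libraries, 1 per group, was deposited by the authors as 1 table of CPM (counts per 1000000, the sum of each column) for 12208 genes. The tool edgeR 3.30.0 is named in the submitters' processing notes. Aligner, read counter, build, annotation: not given in the sources used here. The libraries came from a kit that keeps strand, per the labels' protocols. The table holds no zeros, and its lowest values correspond to 9 to 12 reads, so genes silent in a library are not analysed here. All columns were used.

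Values were whole multiples of the worth of 1 read within 0.01 of a read (100% in each column), and the reads so recovered (11355974 to 15995777) gave exact 95% conditional binomial (Clopper-Pearson) intervals. Of the identifiers 12205 were found in GENCODE M21 (GRCm38), 11716 with the version. Changes are differences of log2(CPM + 1) in genes whose mean CPM was 1 or more. The length trend is a lowess curve on log10 length (fraction 0.3, 3 iterations, statsmodels 0.14.6, Python 3.11.15). The time test was limma 3.58.1 (in R 4.3.3 with a two-sided, trended empirical Bayes test, 1 residual degree of freedom, infinite prior degrees of freedom). A second search for the worth of 1 read, which takes the lowest value of a column as 1 read, found 13% to 26% of the low values whole within 0.1 of a read; the lowest values here are not 1 read. The intervals rest on the first estimate. A count test on the recovered reads with the same terms was tried after seeing the data and is not reported; like the limma fit, it called far fewer genes once the libraries were rescaled. The time test and the trend removal were tested on simulated data. Alternatives were pseudocounts of 0.25 and 5, no filter, a mean CPM of at least 5, median-of-ratios and mitochondria-free scaling, other lengths, 20 length bins, a 1.5-fold limit and subtraction of the control change.

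The members and the 37 gene lists were chosen with earlier results of these data known. Named genes were the 15 highest and 15 lowest of those with an informative symbol that were 2-fold changed in both ways (6 were lower), up to 4 per list by trend-removed change, 13 fixed genes, and the 3 shortest and 3 longest of the 200 most abundant. Genes named outside this rule are said to be so, or stand beside it as members of a set printed in full. Some genes that the rule names are not reported here.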

Additional observations from a re-analysis of the deposited data

Results flagged for a closer look

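For the 5 genes flagged here, all named by rule, the change from 24 h to 48 h went 1 way in treated cells. It went the opposite way in control cells, with a counting interval that excluded 1 in each pair. The treated change minus the control change was 1.95 for Ifit1, 2.06 for Ifit3, 1.78 for Zbp1 and 1.65 for Phf11d, all higher under ligand and lower in control. For Npnt it was -1.67, lower under ligand and higher in control. Other genes named by rule met the same condition with smaller differences, among them Irf9 at 0.54, Dhx58 at 0.79, Psme1 at 0.74 and Psme2 at 0.83. With 1 library in each group these differences were not tested.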

How the results depend on the processing

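With 1 library a group the counts move with the limit, the scaling and the treatment of low genes, and none has a replicate check. The 127 higher genes became 70 with a pseudocount of 5, 206 with median-of-ratios rescaling and 678 at 1.5-fold. The 52 lower genes became 130 and 3 with pseudocounts of 0.25 and 5, 30 at a mean CPM of at least 5, 31 with median-of-ratios rescaling and 845 at 1.5-fold. With the length trend removed, the 64 higher genes became 40 with a pseudocount of 5, 40 at a mean CPM of at least 5, 142 with median transcript length and 518 at 1.5-fold. The 54 lower genes became 129 and 3 with pseudocounts of 0.25 and 5, 24 at a mean CPM of at least 5, 20 with median transcript length and 397 at 1.5-fold. The shortest protein-coding length, chosen after seeing the data, gave 176 and 24. In the time fit (limma) the 59 rising and 60 falling genes became 0 and 0 without a treatment term (513 at an unadjusted p under 0.05), 0 and 0 with median-of-ratios rescaling (1454), and 1 and 8 with each library's length trend removed; 102 fell with no mean-variance trend. Leaving out each library gave 0 to 855 rising and 0 to 1304 falling. The change of Egr1 was -1.11, and 0.0636 once the control change was subtracted. The cause of these shifts was not tested. No paired analysis was possible because each group held 1 library.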

Other observations

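Under ligand 12 of 21 antioxidant, 6 of 12 chaperone and 11 of 40 cell cycle genes were higher at 48 h. The share over all genes was 35.7%, and the lists had medians of -0.01, 0.03 and -0.08 with the length trend removed. Prdx1, a peroxiredoxin that removes hydrogen peroxide, was at 513 and 564 CPM in the controls and 567 and 1081 CPM under ligand. Its list of 21 metallothionein and antioxidant genes had a median change of 0.07, and -0.01 with the length trend removed, and 0 were 2-fold changed. The chaperone gene Hsp90aa1 went from 998 to 1504 CPM under ligand and from 884 to 929 CPM in control. The 40 cell cycle and DNA replication genes had a median of -0.20, and -0.08 with the trend removed, with 0 past 2-fold, and the mitotic kinase gene Cdk1 went from 137 to 171 CPM under ligand and from 129 to 144 CPM in control.

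Within the Wnt and BMP lists 4 and 6 genes were higher at 48 h under ligand and 13 and 12 were lower. Over all genes 35.7% were higher. Wif1, a Wnt inhibitor, was at 13.0 and 15.3 CPM in the controls and 7.47 and 4.05 CPM under ligand, and the ligand gene Wnt10b was at 41.2, 40.2, 26.4 and 18.9 CPM. Nog, which encodes the BMP antagonist noggin, was low in all libraries, at 4.94, 3.44, 2.14 and 1.23 CPM. In these 3 genes both treated levels lay below both controls and the 48 h level was the lowest of the 4. The ligand gene Wnt5a lay above its controls, at 14.1 and 14.4 CPM in the controls and 18.8 and 18.7 CPM under ligand. Its treated ratio over time was 0.996 (0.829 to 1.19), and that of Nog was 0.577 (0.285 to 1.11), with 1 inside both intervals. The 17 Wnt and 18 BMP list genes had medians of -0.12 and -0.23 (0.05 and -0.03 with the trend removed), and 0 were 2-fold changed.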
